A study of Mus musculus with 13 samples.

Results

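The 10 genes described here belong to the making, clearing and sensing of extracellular adenosine or are close relatives: the ectonucleotidases Nt5e, Entpd1 and Entpd2, their intracellular relative Entpd5, the clearing enzymes Ada and Adk, and the receptors Adora1, Adora2a, Adora2b and Adora3. They were chosen by name, as the pathway around Nt5e, out of 23361 gene symbols in the tables. The rise of Nt5e in tumours with Yap lowered was known when the set was chosen, so the differences between treatments in these 10 genes are a description and not a test. The study sequenced RNA of hepatocellular carcinomas, tumours that arise from liver parenchymal cells and were found by ultrasound. All 13 libraries came from Mst1-/-; Mst2Flox/Flox mice on a mixed C57BL/6 and 129Sv background that had received an adenovirus carrying Cre, so Mst1 is lost in every cell and Mst2, the other Hippo kinase, in cells the virus reached. The 5 siYap libraries came from tumours of mice given intravenous lipid nanoparticles with an siRNA against Yap for 9 days. The 8 siLuc libraries came from tumours of mice given nanoparticles that carried an siRNA to luciferase, a gene mice do not have, over the same 9 days. The labels give neither the age of the mice nor which libraries came from 1 animal, so the spread between libraries may in part be technical. The main test treated each library as separate. If libraries share an animal, its standard errors and adjusted p can be too small.

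Cells release ATP when stressed or damaged, and surface enzymes take it apart step by step. Entpd1 (CD39) and Entpd2 remove phosphates from ATP and ADP, and Nt5e (CD73) turns the resulting AMP into adenosine. Adenosine is sensed by 4 G protein-coupled receptors, of which Adora1 and Adora3 lower cyclic AMP and Adora2a and Adora2b raise it. It is taken up by nucleoside transporters and is then phosphorylated by Adk or deaminated by Ada. In tumours the pathway is known for restraining immune cells through Adora2a, and in liver for its part in fibrosis and in the response to low oxygen.

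Nt5e was the member that separated the groups, and Entpd2 was the one other member past the threshold. Nt5e rose, with a mean 8.09-fold higher in siYap tumours in FPKM (fragments per kilobase of transcript, scaled for depth), and every siYap library lay above every siLuc library. Entpd2 fell, with a mean 2.76-fold lower in siYap tumours. Entpd1, Entpd5, Ada, Adk, Adora1, Adora2a and Adora2b did not pass the threshold, and Adora3 had too few fragments to be tested. The threshold was an adjusted p under 0.05 in edgeR's quasi-likelihood test over 15132 genes. It was passed by 1 member that rose and 1 that fell of the 9 tested, while 30.8% of all genes tested passed it. The median log2 fold change of the 9 members was 0.23, against -0.0026 over all genes tested. Since the contrast was known when the members were chosen, nothing is read from these counts.

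The promoter windows of both members that changed are shown because these are the members whose difference passed the threshold. They hold 250 bases before and 50 bases after the annotated start in RefSeq (GRCm38.p6, the assembly of mm10), read 5′ to 3′ on the strand of the gene. Nt5e lies at chr9:88327359-88327658 on the plus strand and Entpd2 at chr2:25395624-25395923 on the plus strand. Capitals mark a match to 1 of 3 motifs, searched on both strands.
Nt5e promoter: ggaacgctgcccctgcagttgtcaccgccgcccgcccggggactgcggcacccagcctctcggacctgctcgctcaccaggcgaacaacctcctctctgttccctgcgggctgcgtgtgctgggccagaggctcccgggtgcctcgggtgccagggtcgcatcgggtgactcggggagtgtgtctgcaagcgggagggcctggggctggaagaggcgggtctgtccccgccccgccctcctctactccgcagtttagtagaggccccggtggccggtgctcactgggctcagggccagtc
Entpd2 promoter: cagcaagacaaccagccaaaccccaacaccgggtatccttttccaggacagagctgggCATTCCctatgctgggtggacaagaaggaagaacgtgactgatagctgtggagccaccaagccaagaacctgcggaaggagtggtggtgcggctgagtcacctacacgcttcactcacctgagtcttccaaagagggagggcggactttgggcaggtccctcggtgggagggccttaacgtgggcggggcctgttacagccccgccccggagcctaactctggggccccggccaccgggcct
The motifs were GGAATG for the Tead factors that carry Yap to DNA, TCAAAG for the Tcf and Lef factors of Wnt signalling, and TGACGTCA for cyclic AMP response factors. The motif letters do not overlap one another. The Nt5e window held none of the 3 motifs. In GENCODE vM21, used here for gene positions, Nt5e begins at 88327197, so this window lies wholly inside the gene. Bases before that start were not searched. The Entpd2 window held 1 match to the Tead motif, CATTCC on the strand shown, which begins 192 bases before the start. Among all 32851 windows in the table, 14.7% held the Tead motif, 16.0% the Tcf and Lef motif and 1.79% the cyclic AMP motif. Of the 12 windows found for 9 of the members, the only other match was a Tead motif in the second window of Adora1. A match or its absence in these windows says nothing about binding. The share of G and C was 71.0% in the Nt5e window and 62.0% in the Entpd2 window, within the 48.3% to 75.0% of the 12 member windows, and 53.8% over all windows of the table.

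Yap1, the targeted gene, was lower in every treated library. In siYap tumours Yap1 (mm10, chromosome 9, 7931999 to 8004596, minus strand) averaged 3.29 ± 0.845 FPKM (SD, n = 5) and in siLuc tumours 9.999 ± 1.37 FPKM (SD, n = 8). The log2 fold change of -1.58 ± 0.17 (SE) had an adjusted p of 2.36e-05 in edgeR's quasi-likelihood test. Totals ran from 23637021 to 37043914 estimated fragments per library, and siYap replicates 1 and 3 had the lowest totals. Rn45s, the ribosomal RNA precursor, was also highest in these 2, with 1160 and 1882 CPM (counts scaled to library size). The other 11 libraries had 479 to 812 CPM. Some results, but not all, are also given below without siYap replicates 1 and 3. The hepatocyte genes Ttr, Apoa1, Hnf4a, Fgb and Serpina1a were present in every library. Fgb and Serpina1a fell (adjusted p of 0.0261 and 0.00710) and the other 3 did not pass. The summed level of the 5 was 7557 to 11173 FPKM in siYap and 9682 to 16497 FPKM in siLuc tumours.

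Nt5e (chromosome 9, 88327197 to 88372092, plus strand) stood at 3.97, 14.7, 5.56, 7.03 and 7.16 FPKM in siYap replicates 1 to 5, against 0.563 to 1.36 FPKM with a median of 0.952 FPKM in the 8 siLuc libraries. The lowest siYap library thus held 2.93 times the highest siLuc library, and the groups did not overlap. Nt5e was the 1 tested member of 9 without overlap, while 11.2% of all genes tested had none (5.57% with siYap wholly above siLuc and 5.66% with siYap wholly below). The depth was ample, with 529 to 1832 fragments of Nt5e per siYap library and 81 to 192 per siLuc library. The mean was 7.68 ± 4.12 FPKM (SD, n = 5) in siYap and 0.950 ± 0.324 FPKM (SD, n = 8) in siLuc tumours, and the log2 fold change was 3.03 ± 0.28 (SE). Without siYap replicates 1 and 3 the log2 fold change was 3.32.

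Nt5e varied widely among the siYap libraries. Its coefficient of variation was 53.6% in siYap and 34.1% in siLuc libraries, near that of the sparse Adora2b in siYap (53.3%). The highest and the lowest siYap libraries, replicates 2 and 1, carry the same number in their file names, whose meaning the labels do not give. Replicates 3 and 4, which share another number, stood at 5.56 and 7.03 FPKM. In siLuc the replicates 5, 6 and 7 share a number and stood at 1.22, 0.769 and 1.14 FPKM. The file names also carry a code that begins with 6, 7 or 8. Within these digits Nt5e was higher in siYap by 3.72, 2.44 and 3.42 on the log2 CPM scale, with 2 siYap and 2 siLuc libraries under 6, 2 and 5 under 7, and 1 of each under 8.

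**Figure D1:**
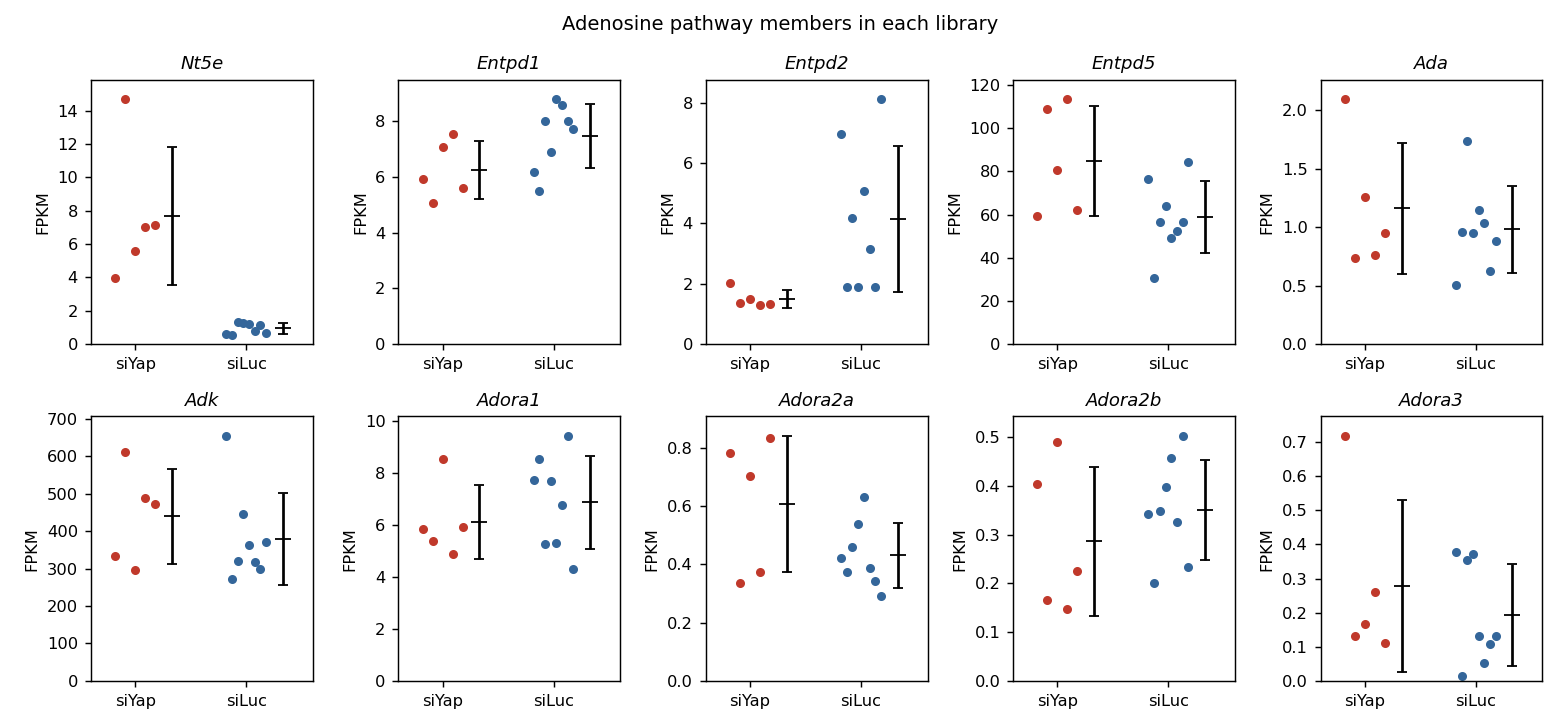
FPKM of each of the 10 members in every library, siYap in red and siLuc in blue, with the mean and SD in black beside the points and each axis starting at 0. All 5 siYap points of Nt5e, from 3.97 to 14.7 FPKM, lie above the 8 siLuc points, while for each other member the groups overlap.

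Of the members that act on ATP upstream of Nt5e, Entpd1 did not pass the threshold and Entpd2 fell. Entpd1 (chromosome 19, 40612366 to 40741602, plus strand), the ectonucleotidase of blood vessels and immune cells that removes 2 phosphates from ATP, had 5.94, 5.06, 7.09, 7.54 and 5.59 FPKM in siYap replicates 1 to 5, against 5.51 to 8.78 FPKM with a median of 7.87 FPKM in siLuc libraries. Only siYap replicate 2 lay below the siLuc range. The means were 6.24 ± 1.04 FPKM in siYap and 7.46 ± 1.16 FPKM in siLuc tumours, and the log2 fold change of -0.23 ± 0.14 (SE) did not pass the threshold. Entpd1 was the steadiest member, with a coefficient of variation of 16.7% in siYap and 15.5% in siLuc libraries.

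Entpd2 (chromosome 2, 25395874 to 25401321, plus strand), an ectonucleotidase that prefers ATP and is known in liver from portal fibroblasts, had 2.01, 1.37, 1.497, 1.28 and 1.33 FPKM in siYap replicates 1 to 5. In siLuc libraries it ran from 1.90 to 8.11 FPKM with a median of 3.65 FPKM. Of the 5 siYap libraries, 4 lay below all siLuc libraries, and siYap replicate 1 lay just inside the siLuc range. The siYap libraries varied less than the siLuc libraries, with coefficients of variation of 19.9% and 58.1%. The log2 fold change was -1.42 ± 0.39 (SE), and -1.64 without siYap replicates 1 and 3. By the digits 6, 7 and 8 Entpd2 was lower in siYap, by -1.01, -1.11 and -2.56 on the log2 CPM scale.

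The Entpd2 value has a limit in the annotation. On the same strand, 28.8% of its exon bases in GENCODE vM21 are also exon bases of Npdc1, and the sources used here do not say how the authors assigned such fragments. Npdc1 stood at 2.19 ± 1.26 FPKM in siYap and 4.19 ± 1.18 FPKM in siLuc tumours (log2 fold change -0.88 ± 0.35, adjusted p = 0.0664). Thy1, a marker of portal fibroblasts and T cells, was at 0.676 ± 0.332 FPKM in siYap and 1.605 ± 0.830 FPKM in siLuc tumours (adjusted p = 0.0533). Of the 7 stellate cell and fibroblast markers, which include Thy1, 2 rose (Lrat and Col1a1) and none passed as lower. Every marker of the 7 except Thy1 had a positive log2 fold change, and Thy1 was named after its value was seen. The summed level of the 7 was 90.2 to 420 FPKM in siYap and 31.3 to 219 FPKM in siLuc tumours. Of the 5 cholangiocyte markers, 2 fell (Epcam and Sox9). Krt19 and Krt7 were slightly higher in siYap (log2 fold change 0.23 and 0.12) and Cftr lower (-0.63), all without passing. Summed levels of the 5 were 4.95 to 22.7 FPKM in siYap and 18.4 to 50.8 FPKM in siLuc tumours. The part of these cells in the Entpd2 difference was not tested. In tumour RNA, fewer cells of a type and less RNA per cell cannot be told apart.

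Entpd5 (chromosome 12, 84373857 to 84409029, minus strand) belongs to the same enzyme family but works in the endoplasmic reticulum, where it splits UDP during protein glycosylation. It had 59.3, 109, 80.7, 113 and 62.2 FPKM in siYap replicates 1 to 5, against 30.4 to 84.6 FPKM with a median of 56.6 FPKM in siLuc libraries. Replicates 2 and 4 lay above the siLuc range and the other 3 within it. The log2 fold change was 0.55 ± 0.22 (SE) and did not pass the threshold. It passed without siLuc replicate 8 (log2 fold change 0.65) or without siYap replicate 1 (0.66), the libraries with the highest siLuc and the lowest siYap level. Under the digits 6, 7 and 8 the difference was 0.82, 0.77 and -0.43, so its sign turned in the digit that holds 1 library of each treatment.

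The 2 enzymes that clear adenosine did not pass the threshold. Adk (chromosome 14, 21052574 to 21448569, plus strand), the kinase that returns adenosine to AMP and is abundant in hepatocytes, had 332, 611, 296, 489 and 472 FPKM in siYap replicates 1 to 5. In siLuc libraries it ran from 272 to 654 FPKM with a median of 341 FPKM. No siYap library lay outside the siLuc range, whose top is siLuc replicate 1. The means were 440 ± 127 FPKM in siYap and 380 ± 123 FPKM in siLuc tumours, with a log2 fold change of 0.23 ± 0.22 (SE). Ada (chromosome 2, 163726584 to 163750239, minus strand), the deaminase that turns adenosine into inosine, had 2.09, 0.741, 1.26, 0.762 and 0.952 FPKM in siYap replicates 1 to 5, against 0.505 to 1.73 FPKM with a median of 0.953 FPKM in siLuc libraries. Only siYap replicate 1 lay outside the siLuc range. The log2 fold change of Ada was 0.30 ± 0.34 (SE), and its sign turned without siYap replicate 1 (-0.094).

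Of the receptors, Adora1 was the most abundant per length in both groups. Adora1 (chromosome 1, 134199223 to 134235431, minus strand) had 5.87, 5.41, 8.55, 4.88 and 5.93 FPKM in siYap replicates 1 to 5, against 4.31 to 9.44 FPKM with a median of 7.23 FPKM in siLuc libraries. Every siYap library lay within the siLuc range, and the log2 fold change was -0.12 ± 0.20 (SE). On the opposite strand, 20.1% of its exon bases are also exon bases of Mybph, which stood at no more than 0.0933 FPKM in any siYap and 0.260 FPKM in any siLuc library. Adora2a (chromosome 10, 75316877 to 75334784, plus strand), the receptor by which adenosine restrains lymphocytes, had 0.783, 0.337, 0.703, 0.374 and 0.834 FPKM in siYap replicates 1 to 5. In siLuc libraries it ran from 0.289 to 0.631 FPKM with a median of 0.404 FPKM. Replicates 1, 3 and 5 lay above the siLuc range and replicates 2 and 4 within it, and the log2 fold change of 0.53 ± 0.30 (SE) did not pass the threshold.

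Adora2b (chromosome 11, 62248984 to 62266453, plus strand), the low-affinity receptor that responds to high adenosine, had 0.405, 0.165, 0.490, 0.146 and 0.226 FPKM in siYap replicates 1 to 5, against 0.200 to 0.502 FPKM with a median of 0.345 FPKM in siLuc libraries. It rested on 8 to 26 fragments per siYap library and 14 to 29 per siLuc library, so a small difference was not detectable at this depth. Replicates 2 and 4 lay below the siLuc range, and the log2 fold change was -0.28 ± 0.37 (SE). Adora3 (chromosome 3, 105870858 to 105908926, plus strand) held 4 to 23 fragments per siYap library and 1 to 14 per siLuc library and did not pass the filter on low counts. Its highest library was siYap replicate 1 at 0.718 FPKM, and the siLuc libraries ran from 0.0147 to 0.376 FPKM. In the annotation it shares 20.9% of its exon bases with Tmigd3 on the same strand.

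The order of the members by mean FPKM differed between the groups through the place of Nt5e among the others. In siYap tumours it ran Adk, Entpd5, Nt5e, Entpd1, Adora1, Entpd2, Ada, Adora2a, Adora2b and Adora3, so that Nt5e ranked 3. In siLuc tumours Nt5e ranked 7, between Ada and Adora2a, and the other 9 members stood in the same order relative to one another. In siLuc tumours Adk lay wholly above Entpd5, and Entpd5 wholly above Entpd1. Entpd2 also lay wholly above Ada, and the other neighbours overlapped in range. In siYap tumours the Nt5e range of 3.97 to 14.7 FPKM took in the ranges of Entpd1 (5.06 to 7.54 FPKM) and Adora1 (4.88 to 8.55 FPKM), so these 3 cannot be ordered beyond their spread.

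**Figure D2:**
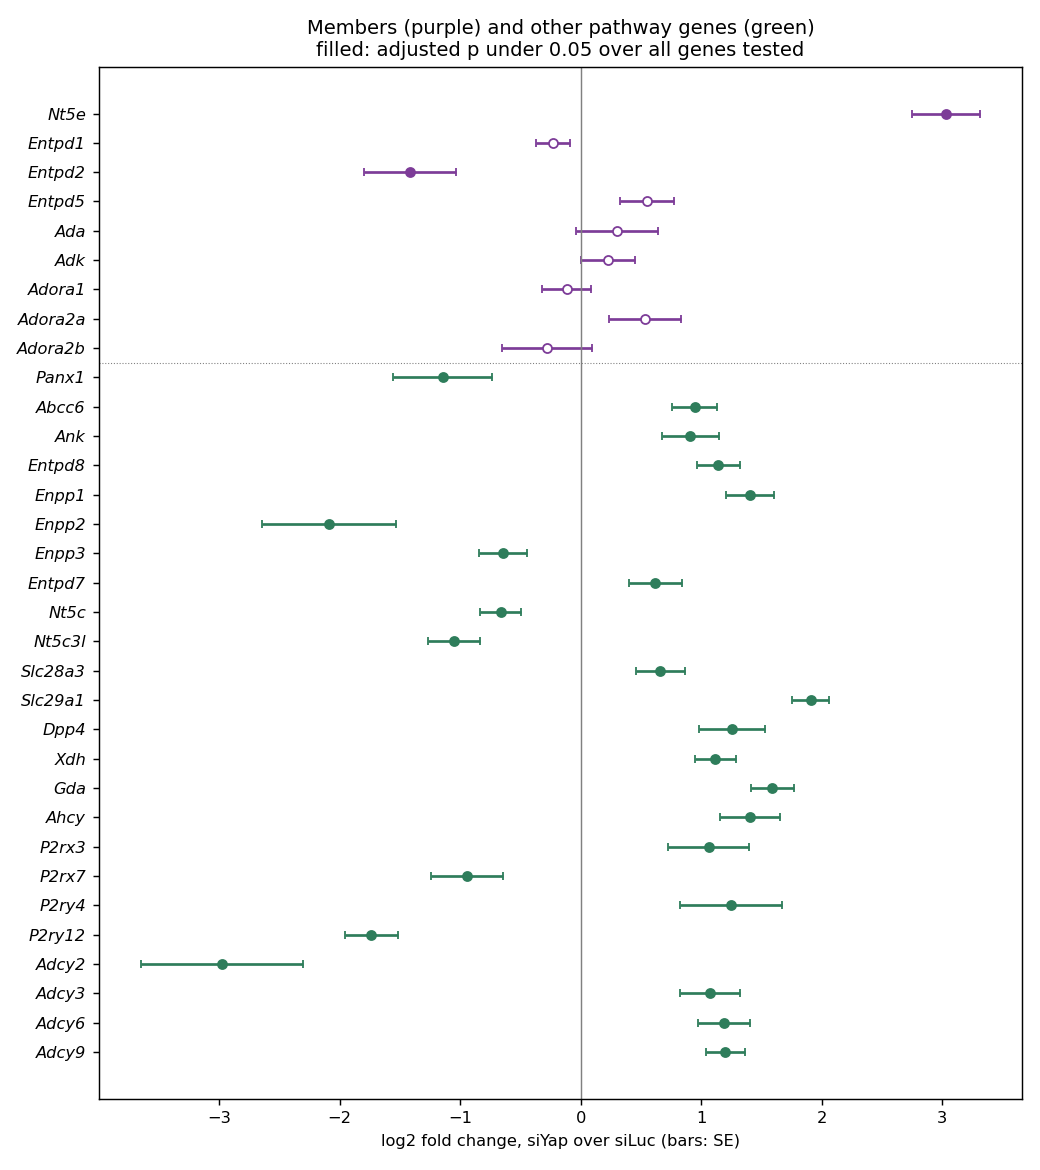
Log2 fold change of siYap over siLuc with its standard error, for the 9 members tested (purple, above the dotted line) and 24 other genes of purine and nucleotide handling (green). Filled points passed the threshold over all genes tested, as did Nt5e at 3.03 and Entpd2 at -1.42, and open points did not.

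Genes around the members were taken from 8 lists of nucleotide release, breakdown, transport and sensing. Of 68 tested genes in these lists, 20 rose (29.4%), 10 fell (14.7%) and 38 did not pass the test. Over all genes tested 16.0% rose and 14.8% fell. The median log2 fold change of the 68 was 0.11, against -0.0026 over all genes. The lists were chosen with earlier results of these data known, so nothing is read from these shares or this median. A further 12 of the 80 genes found were too low to test. Without siYap replicate 3 the number called was 19, and it was also 19 without replicates 1 and 3 together.

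The enzymes that act on nucleotides beside Nt5e moved in both directions. Of 8 other ectonucleotidases tested, 3 rose, 2 fell and 3 did not pass. Enpp1, which splits ATP straight into AMP and pyrophosphate, was at 26.3 ± 6.26 FPKM in siYap and 9.95 ± 2.35 FPKM in siLuc tumours (log2 fold change 1.41 ± 0.20, adjusted p = 0.000163). Entpd8, the NTPDase of the bile canaliculus, was at 22.3 ± 5.68 FPKM in siYap and 10.2 ± 1.98 FPKM in siLuc tumours (adjusted p = 0.000323). Neither gene overlapped between the groups. Alpl, tissue-nonspecific alkaline phosphatase, which can also strip AMP, rose to 6.95 ± 2.91 FPKM in siYap, against 4.05 ± 0.987 FPKM in siLuc tumours (adjusted p = 0.0257).

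Enpp2 (autotaxin), which makes lysophosphatidic acid, fell to 4.95 ± 5.59 FPKM in siYap, against 21.7 ± 6.08 FPKM in siLuc tumours (adjusted p = 0.0124). Its siYap replicate 1 stood at 14.6 FPKM and the other 4 at 1.495 to 5.19 FPKM, and the log2 fold change of -2.09 became -3.14 without that replicate. Enpp3 fell to 25.0 ± 4.92 FPKM in siYap, against 39.7 ± 11.1 FPKM in siLuc tumours (adjusted p = 0.0240), a call that was lost without siYap replicate 2, 4 or 5 (adjusted p of 0.0506 to 0.0614). Of the 5 other 5′-nucleotidases tested, 2 fell and none rose. Nt5c, a cytosolic enzyme that prefers deoxynucleotides, fell to 13.4 ± 1.45 FPKM in siYap, against 21.6 ± 3.66 FPKM in siLuc tumours (adjusted p = 0.00910). Nt5c3l fell to 3.27 ± 1.09 FPKM in siYap, against 6.96 ± 1.17 FPKM in siLuc tumours (adjusted p = 0.00217). Among the 6 5′-nucleotidases tested, only Nt5e passed as higher, and since its rise was known beforehand, nothing is read from this. Nt5c3 was also higher without passing (log2 fold change 0.26 ± 0.16), while Nt5c2 and Nt5m were lower without passing. Of the intracellular Entpd enzymes, Entpd7 rose (log2 fold change 0.62 ± 0.22, adjusted p = 0.0452), Entpd6 did not pass, and Entpd4 was listed at 0 in every library. The Entpd7 call was lost in 10 of the 13 fits that leave out 1 library, with an adjusted p of 0.0506 to 0.168.

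For ATP release, 2 of 8 tested genes rose, 1 fell and 5 did not pass. Abcc6, a hepatocyte transporter needed for ATP efflux, rose to 17.5 ± 7.13 FPKM in siYap, against 9.24 ± 1.999 FPKM in siLuc tumours (adjusted p = 0.00182). Ank, which exports pyrophosphate and ATP, rose to 4.71 ± 1.39 FPKM in siYap, against 2.53 ± 0.882 FPKM in siLuc tumours (adjusted p = 0.0101). The Ank call was lost without siYap replicates 1 and 3 (0.0905). Pooling the libraries whose names share a number also lost it (0.0818). The ATP channel Panx1 fell (log2 fold change -1.15 ± 0.41, adjusted p = 0.0449), a call lost in 9 of the 13 fits that leave out 1 library, with an adjusted p of 0.0541 to 0.0998.

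For uptake, Slc29a1, the equilibrative transporter ENT1 that carries adenosine across the cell membrane, stood at 34.7, 49.97, 61.5, 55.6 and 44.8 FPKM in siYap replicates 1 to 5, against 10.8 to 18.9 FPKM in siLuc libraries. The groups did not overlap. The log2 fold change was 1.91 ± 0.15 (SE) and the adjusted p 3.07e-06. Slc28a3, a concentrative transporter, rose to 1.13 ± 0.245 FPKM in siYap, against 0.726 ± 0.138 FPKM in siLuc tumours (adjusted p = 0.0225), but the call was lost without siYap replicate 1 (0.0616) or 3 (0.0667). The other 3 transporters tested did not pass.

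**Figure D3:**
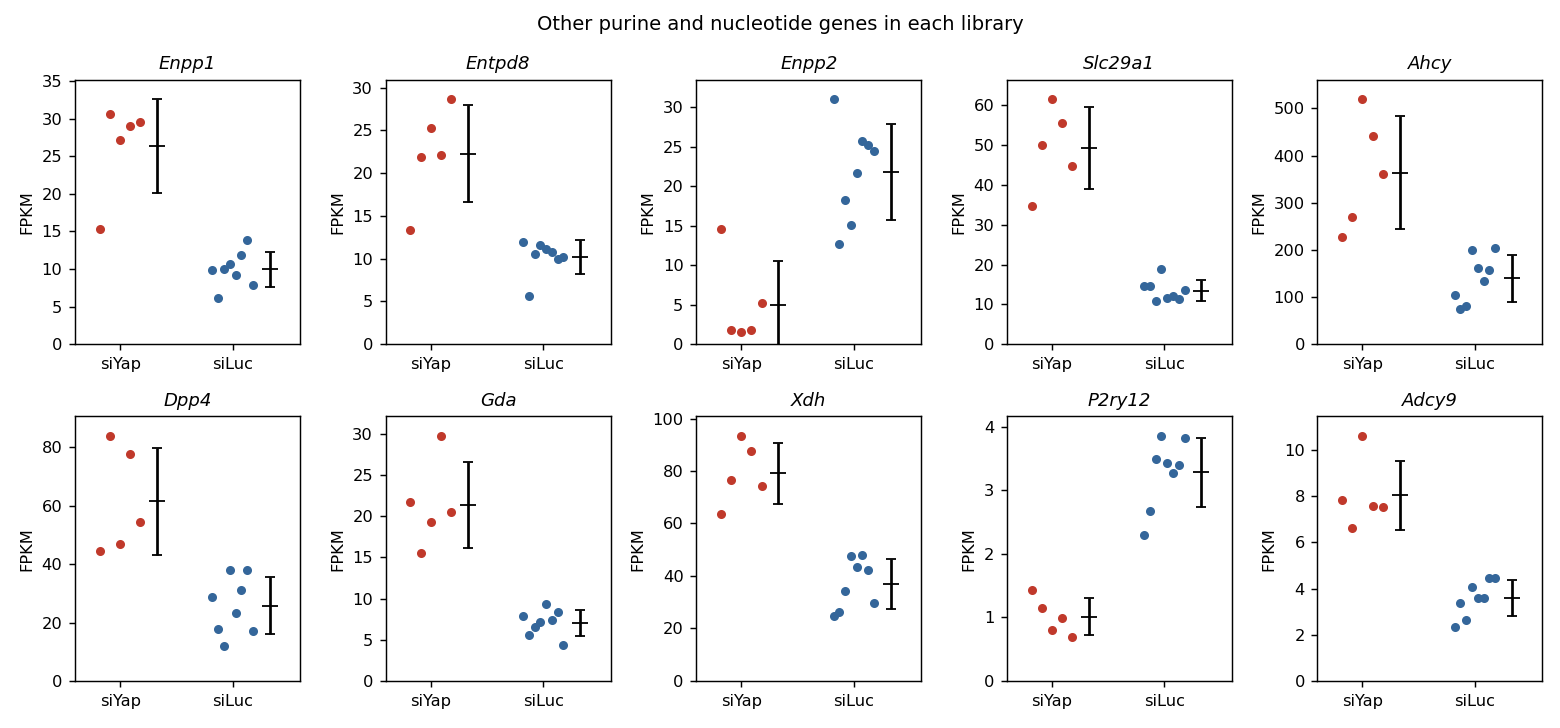
FPKM of 10 other genes of purine and nucleotide handling in every library, siYap in red and siLuc in blue, with the mean and SD in black and each axis starting at 0 (the lower error bar of Enpp2 in siYap reaches below 0 and is clipped). The 5 siYap points of Slc29a1, from 34.7 to 61.5 FPKM, lie above the 8 siLuc points, and those of P2ry12 lie below them.

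In purine salvage and breakdown, 6 of 15 tested genes rose, 1 fell and 8 did not pass. Ahcy, which releases adenosine from S-adenosylhomocysteine inside the cell, rose to 364 ± 120 FPKM in siYap, against 140 ± 49.5 FPKM in siLuc tumours (log2 fold change 1.40 ± 0.25, adjusted p = 0.000873). Gda, guanine deaminase, rose to 21.4 ± 5.24 FPKM in siYap, against 7.08 ± 1.59 FPKM in siLuc tumours (adjusted p = 2.91e-05). Xdh, which makes uric acid, rose to 79.1 ± 11.7 FPKM in siYap, against 37.0 ± 9.45 FPKM in siLuc tumours (adjusted p = 0.000273). Dpp4, a surface peptidase whose human form anchors adenosine deaminase, rose to 61.5 ± 18.2 FPKM in siYap, against 25.8 ± 9.79 FPKM in siLuc tumours (adjusted p = 0.00368). For each of these 4 genes the groups did not overlap. Ampd3 and Ahcyl1 were the further risers and Mtap the one that fell.

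Receptors for the nucleotides themselves were split. Of 13 P2 receptors tested, 2 rose, 3 fell and 8 did not pass. P2ry12, the ADP receptor of platelets and microglia, fell to 1.01 ± 0.290 FPKM in siYap, against 3.28 ± 0.537 FPKM in siLuc tumours, with no overlap (log2 fold change -1.74 ± 0.22, adjusted p = 5.87e-05). P2rx7, the ATP-gated channel of macrophages, fell (log2 fold change -0.94 ± 0.30, adjusted p = 0.0270), and the call was lost without siYap replicate 2, 3, 4 or 5 (adjusted p of 0.0520 to 0.0654). P2rx5 fell as well (adjusted p = 0.0420), but the groups overlapped. Its siLuc median was 1.14 FPKM, with siLuc replicate 8 the highest at 4.29 FPKM. This call was not followed in the fits that leave out libraries. Of the 5 macrophage markers, 3 passed as lower (Emr1, Clec4f and Csf1r) and none as higher. Cd5l and Cd68 were higher in siYap without passing (log2 fold change 0.95 ± 0.55 and 0.59 ± 0.27). Summed levels were 39.1 to 124 FPKM in siYap and 51.1 to 141 FPKM in siLuc tumours. The part of macrophages in the values of P2ry12 and P2rx7 was not tested.

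P2ry4, a receptor for UTP, rose by the test (log2 fold change 1.25 ± 0.42, adjusted p = 0.0355). Its siYap replicate 1 stood at 3.04 FPKM and the next at 0.950 FPKM. Without that library the log2 fold change was 0.62 and the adjusted p was 0.215, and the call was also lost without siLuc replicate 1, 2, 3 or 8 or siYap replicate 3 (adjusted p of 0.0513 to 0.0601). P2rx3, at no more than 0.450 FPKM in any library, rose (log2 fold change 1.06 ± 0.33, adjusted p = 0.0261), a call lost without siYap replicate 1 (0.0707) or 3 (0.0791).

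Downstream of the adenosine receptors, none of the 4 G protein genes tested passed, and the adenylyl cyclases, which make cyclic AMP, accounted for all 4 rises and the 1 fall in this list of 12. Adcy9 rose to 8.03 ± 1.505 FPKM in siYap, against 3.57 ± 0.779 FPKM in siLuc tumours (adjusted p = 0.000106). Adcy6 rose to 7.87 ± 3.64 FPKM in siYap, against 3.49 ± 0.589 FPKM in siLuc tumours (adjusted p = 0.00107). Adcy3 and Adcy5 rose at levels under 1 FPKM. Adcy2 fell to 0.0657 ± 0.04999 FPKM in siYap, against 0.522 ± 0.337 FPKM in siLuc tumours (adjusted p = 0.00446). It rested on 1 to 16 fragments per siYap library and 16 to 171 per siLuc library, and the groups overlapped.

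Within the groups, the genes that followed Nt5e most closely were sought among 11592 genes, by Pearson's r of log2 CPM deviations from the group mean over the 13 libraries. They were Npc2 (r = 0.86), which carries cholesterol in the lysosome, H2-Q5 (r = 0.83), a class I histocompatibility gene, Ces1c (r = 0.83), a plasma carboxylesterase, Cyp2c68 (r = 0.82), a cytochrome P450, and Fam25c (r = 0.81). These are descriptions, and the libraries share numbers and depth. H2-Q5, Ces1c and Cyp2c68 belong to families with near-identical copies, so their fragments are uncertain. Between the groups these genes did not all share the rise of Nt5e. Npc2 stood at 27.8 ± 4.14 FPKM in siYap and 29.5 ± 4.10 FPKM in siLuc tumours (adjusted p = 0.736), while Cyp2c68 rose to 171 ± 84.9 FPKM in siYap, against 27.9 ± 19.7 FPKM in siLuc tumours (adjusted p = 0.00197).

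**Figure D4:**
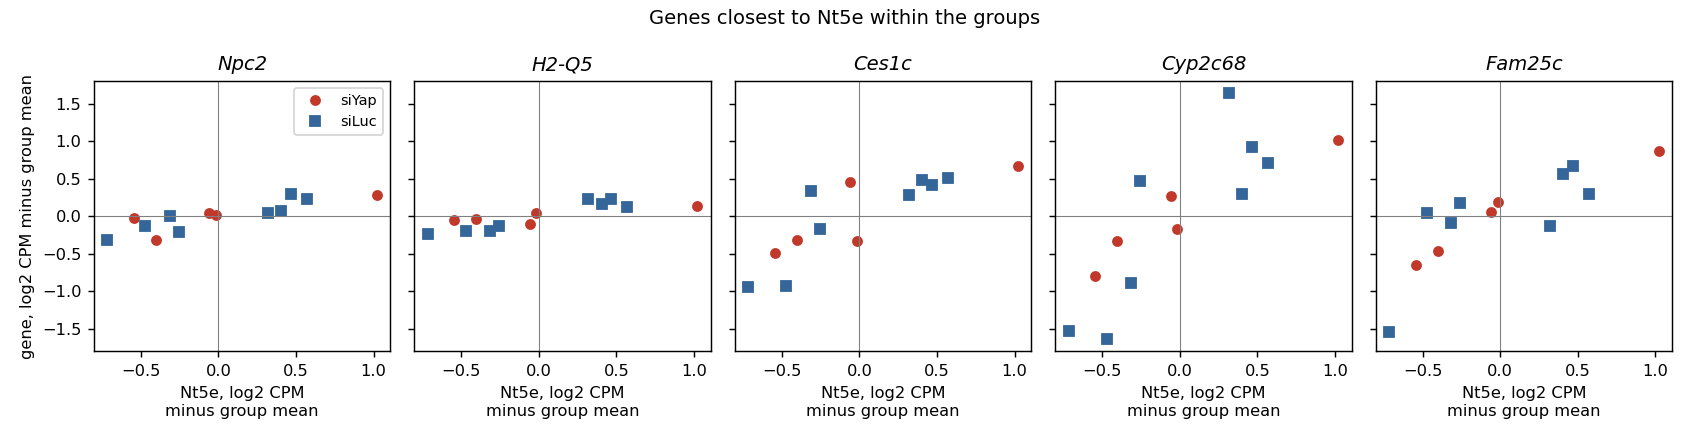
Deviation of each library from its group mean (log2 CPM) for Nt5e on the horizontal axis and for each of the 5 closest genes on the vertical axis, siYap as red circles and siLuc as blue squares. The siYap library farthest to the right in each panel is replicate 2, the highest in Nt5e at 14.7 FPKM.

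Other cell types in the tumours were read from lists of markers, since Nt5e, Entpd1 and Adora2a are also made by blood vessel, stromal and immune cells. Of the 6 endothelial markers, 2 rose (Stab2 and Lyve1) and none passed as lower. Pecam1, Tek, Kdr and Cdh5 did not pass (log2 fold change -0.048, -0.074, 0.067 and 0.41). Summed levels were 43.8 to 66.9 FPKM in siYap and 34.8 to 60.6 FPKM in siLuc tumours. Of the 4 neutrophil markers found, 3 rose and none fell, with summed levels of 156 to 1157 FPKM in siYap and 34.9 to 188 FPKM in siLuc tumours, and siYap replicate 1 was the highest. Among 6 T cell markers only Cd3g passed, as lower. Cd3e, Cd4 and Cd2 were lower without passing (log2 fold change -0.10, -1.43 and -0.99), and Foxp3 and Cd8a higher (1.12 and 0.054). Summed levels were 2.89 to 9.15 FPKM in siYap and 3.33 to 23.9 FPKM in siLuc tumours. None of the 3 B cell markers tested passed, with summed levels of 1.72 to 2.71 FPKM in siYap and 0.902 to 3.14 FPKM in siLuc tumours. No marker was at 0 in any library. The part of these cells in the values of the members was not tested.

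**Figure D5:**
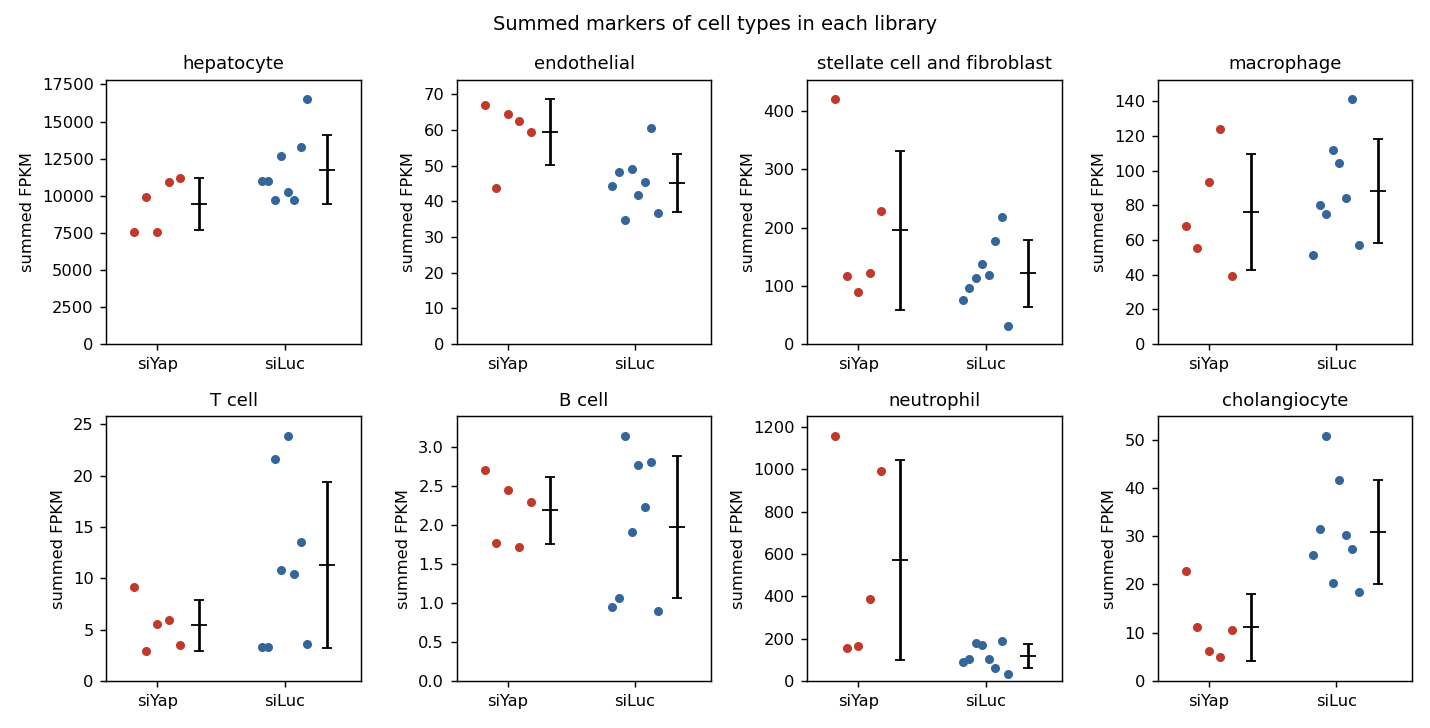
Summed FPKM of the markers of 8 cell types in every library, siYap in red and siLuc in blue, with the mean and SD in black and each axis starting at 0. Neutrophil markers reach 1157 FPKM in siYap against 188 FPKM in siLuc, and cholangiocyte markers 22.7 FPKM against 50.8 FPKM.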

How the data were processed

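Tumour RNA of 13 libraries, 5 siYap and 8 siLuc, was analysed. The submitters' processing notes name the build mm10 and, without roles, Cuffdiff 2.1.1, Cufflinks, TopHat2 2.0.8 and Trimmomatic 0.30. The annotation and the treatment of overlapping genes: not given in the sources used here. The kit was ScriptSeq Complete Gold, per the labels' protocols. The authors deposited 1 table per library, with raw fragments per gene (estimated counts, unscaled, 97.6% to 98.0% of them within 1e-06 of a whole number) and FPKM as scaled by Cuffdiff. A table that repeats these FPKM for the series was not used.

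Counts were rounded. Left out were 3 genes marked as too deep. The main test was edgeR 4.0.16 in R 4.3.3 (quasi-likelihood F test, robust, TMM, default filter on low counts, 15132 genes), siYap against siLuc without covariates, with Benjamini-Hochberg adjustment over all genes. Standard errors were taken as the absolute log2 fold change divided by the square root of F. Levels are FPKM, mean ± SD, n = 5 for siYap and n = 8 for siLuc.

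Members, lists and tests were chosen with earlier results of these data known. The text names all members, Yap1, up to 4 called genes per list with the smallest p and the 5 genes most like Nt5e; Alpl, Ampd3, Ahcyl1, Mtap, P2rx5, Adcy5, Npdc1, Mybph, Entpd6 and Entpd4 were named after their values were seen, as were the marker genes given singly. Alternatives used DESeq2 1.42.0, limma 3.58.1 on log2(FPKM + 1) or log2(FPKM + 0.1), requiring 1 FPKM in 5 libraries, other filters, a replicate block, the digit of the file code, counts summed per file-name number, each library left out and an adjusted p under 0.01. In simulated siYap and siLuc counts of 15231 genes, 57 of 100 genes changed by 1 on the log2 scale were called. Of those changed by 2, 100 of 100 were called, as were 9 unchanged genes. The simulation gave every gene the same dispersion and changed only genes above a minimum mean depth, so these shares do not measure power for the members. Every pair of libraries within a group differed beyond counting noise (chi-square over its degrees of freedom at least 33.3). Gene positions are from GENCODE vM21 and promoters from RefSeq, both on the mm10 assembly; their start sites can differ.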

Additional observations from a re-analysis of the deposited data

Results flagged for a closer look

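In 8 of 70 groups of libraries checked, the highest or lowest library stood apart from the rest by Dixon's ratio at 95%, where chance gives about 1 in 20. For 4 of them the library was siYap replicate 1: Adora3 was highest there at 0.718 FPKM (next 0.260), P2ry4 highest at 3.04 FPKM (next 0.950), Enpp2 highest at 14.6 FPKM (next 5.19), and Enpp1 lowest at 15.3 FPKM (next 27.1). Adora1 was highest in siYap replicate 3 at 8.55 FPKM (next 5.93). Adk was highest in siLuc replicate 1 at 654 FPKM (next 446). In siLuc replicate 2, Entpd8 was lowest at 5.65 FPKM (next 9.93) and Nt5c3l highest at 9.40 FPKM (next 7.30).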

How the results depend on the processing

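Nt5e kept its sign and its call in all 24 alternatives, with log2 fold changes of 2.06 to 3.32, as did Slc29a1 (1.79 to 2.01). Entpd2 ran from -1.64 to -0.91 and missed only an adjusted p under 0.01. Entpd5 crossed the threshold in 2 alternatives, given with its values. Adk ran from 0.069 to 0.49 and Adora1 from -0.38 to -0.027. Adora2a ran from 0.16 to 0.69 and Adora2b from -0.95 to -0.075. None of these members passed in any alternative that gave a value. Without each library in turn, all genes called ran from 3325 to 4633, members called from 2 to 3 and Ada from -0.094 to 0.47. The value of Ada reversed without siYap replicate 1 (-0.094) and without siYap replicates 1 and 3, chosen after seeing the data (-0.27). Of the 24 named pathway genes, all kept their sign and 13 their call in every alternative that gave a value. Members called numbered 1 at an adjusted p under 0.01, against 2. All genes called numbered 4668, against 2325 with the replicate block, 2984 without siYap replicates 1 and 3, and 2362 at an adjusted p under 0.01. Pathway genes called numbered 30, against 19 with the replicate block, 18 on log2(FPKM + 1) and on log2(FPKM + 0.1), 19 without siYap replicates 1 and 3, and 15 at an adjusted p under 0.01; without each library in turn they ran from 19 to 29. With counts summed per file-name number, 3793 genes and 23 pathway genes were called. Fewer libraries or residual degrees of freedom enter the block, the summed and the reduced fits. On FPKM the filter left Slc28a3, P2rx3, P2ry4, Adcy2 and Adcy3 without a value. On log2(FPKM + 1) without that filter, 23 pathway genes were called. Beyond these genes, the cause on FPKM was not tested. The replicate numbers did not pair the libraries: deviations of same-numbered libraries correlated at -0.12 to 0.13, and 2 of 5 siYap libraries matched their own number best. Depth limits Adora2b and Adora3.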
